A study of Mus musculus with 10 samples.

Results

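The nuclear-encoded genes of the mitochondrial respiratory chain and of the ATP synthase were examined in adipocyte precursors (APs) cultured with and without interleukin-4 (IL-4). Members were taken by symbol: every gene whose symbol begins with Nduf, Uqcr, Atp5, or Cox followed by a digit from 4 to 8, together with Sdha to Sdhd, Cycs and Cyc1, without pseudogenes. This gave 92 of the 18384 genes listed in any mRNA-seq file. They divide into 36 genes of complex I, 4 of complex II, 9 of complex III, cytochrome c, 18 of complex IV, 15 of the ATP synthase, and 9 assembly or accessory factors.

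Complex I (NADH dehydrogenase) and complex II (succinate dehydrogenase) pass electrons to coenzyme Q, complex III passes them to cytochrome c, and complex IV (cytochrome c oxidase) passes them to oxygen. The proton gradient built on the way drives the ATP synthase, and in brown and beige adipocytes part of it is spent as heat. A few complex IV subunits have paralogs that are made in particular tissues, such as heart, muscle, lung or testis, in place of the widely expressed form.

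The 6 mRNA-seq libraries comprised 3 of untreated mouse APs (control replicates 1 to 3) and 3 of APs kept with IL-4 (replicates 4 to 6), all harvested after 4 days. APs came from subcutaneous white fat of C57BL/6 J mice, with CD45+ and CD31+ cells removed and SCA-1+ cells selected by magnetic sorting, and no genetic change or dose of IL-4 is given. Labels do not say whether the cultures came from separate animals, so p-values measure only the spread between these 6 libraries. Libraries held 28526779 to 29057784 expected counts, and 91 of the 92 members had enough of them to be tested.

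The AP markers Pdgfra, Ly6a and Dcn were read in every library, as were all 10 genes of that list. Of these 10, 6 rose, 3 of them beyond 2-fold, and 1 fell, with a median log2 fold change of 0.51. All 13 macrophage markers were read as well. Their summed FPKM (fragments per kilobase of transcript and per unit of library size) lay between 3872 and 5033 in controls and between 1543 and 2030 with IL-4. Of the 13, 11 fell and 1 rose (called here and below at an adjusted p under 0.05 from edgeR). All 7 endothelial markers were read, at a summed 13.4 to 16.6 FPKM over the 6 libraries, and 2 rose and 3 fell. Over all tested genes, 19.0% rose and 18.4% fell. Of the 6 tested markers of smooth or skeletal muscle, 6 fell, from a summed 1369 to 1467 FPKM to 433 to 522, and Myh4 and Myod1 had no more than 3 reads in any library. The mature adipocyte markers Plin1, Cfd, Pck1 and Ucp1 were at that floor too, while Fabp4 and Lpl rose, and no lymphocyte marker had enough reads to be tested. In bulk cultures, a change in the share of a cell type and a change in RNA per cell cannot be told apart, and the part of the other cell types in the values below was not tested.

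Some members carry promoter motifs in common, which were counted and not tested. RefSeq promoters (GRCm38.p6, from 250 bases before to 50 after the start site) were at hand for 76 of the 92 members. The motif GCGCATGCG, on either strand, which is part of the palindrome bound by the nuclear respiratory factor NRF1, occurred in 14.5% of them, in 3.85% of the tested genes with a promoter and in 1.95% of all 27025 genes with one. AAGATGGC, bound by YY1, was in 14.5% of members, 5.02% of tested genes and 3.19% of all genes. CCGGAAG, bound by ETS factors such as GABP, was in 22.4%, 19.0% and 9.93%, and the STAT6 motif, TTC and GAA with 4 bases between, in 6.58%, 6.63% and 8.01%. A match describes the letters of the promoter and is not a binding site. The 30-base windows of 7 members whose NRF1 motif lies wholly upstream of the start site are shown on the gene's own strand. The matched bases are in capitals, to let the shared element be seen. Ndufa8, whose match begins at -9 and ends just before the start site, is not shown.
Atp5g2, chr15:102671070-102671099, minus strand: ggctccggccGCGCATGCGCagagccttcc
Atp5k, chr5:108434430-108434459, minus strand: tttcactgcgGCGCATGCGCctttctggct
Atp5l, chr9:44920963-44920992, minus strand: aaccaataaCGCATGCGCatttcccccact
Cox6a1, chr5:115349101-115349130, minus strand: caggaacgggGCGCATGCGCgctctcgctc
Cycs, chr6:50566612-50566641, minus strand: ccatgctagctCGCATGCGCgcgcacaaac
Ndufa11, chr17:56717692-56717721, plus strand: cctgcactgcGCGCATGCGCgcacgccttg
Ndufaf4, chr4:24897960-24897989, plus strand: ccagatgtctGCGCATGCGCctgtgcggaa
None of these 7 genes was called between control and IL-4–treated APs when all 6 libraries were compared after TMM scaling of library sizes (edgeR, as below). Cycs and Ndufaf4 were called lower with library totals (adjusted p = 0.0455 and 0.0224 from edgeR), with limma on FPKM, and without control replicate 3 and IL-4 replicate 6.

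In control APs, most members were well expressed. Their median level was 61.1 FPKM, and mean levels ran from 0.0367 FPKM for Cox8b to 370 for Atp5b, the catalytic beta subunit of the ATP synthase. Subunits of the ATP synthase had a median of 138 FPKM and the 12 widely expressed complex IV subunits a median of 157. Complexes II and III followed with 63.1 and 60.5 FPKM, complex I with 46.7 and cytochrome c with 27.0. Assembly and accessory factors lay far lower, at a median of 7.003 FPKM, from 2.22 for Ndufaf5 to 13.5 for Ndufaf2. The 6 alternative complex IV paralogs, Cox4i2, Cox6a2, Cox6b2, Cox7a1, Cox8b and Ndufa4l2, had a median of 2.87 FPKM, and Ndufa4l2 stood apart from the rest of them at 48.4.

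**Figure D1:**
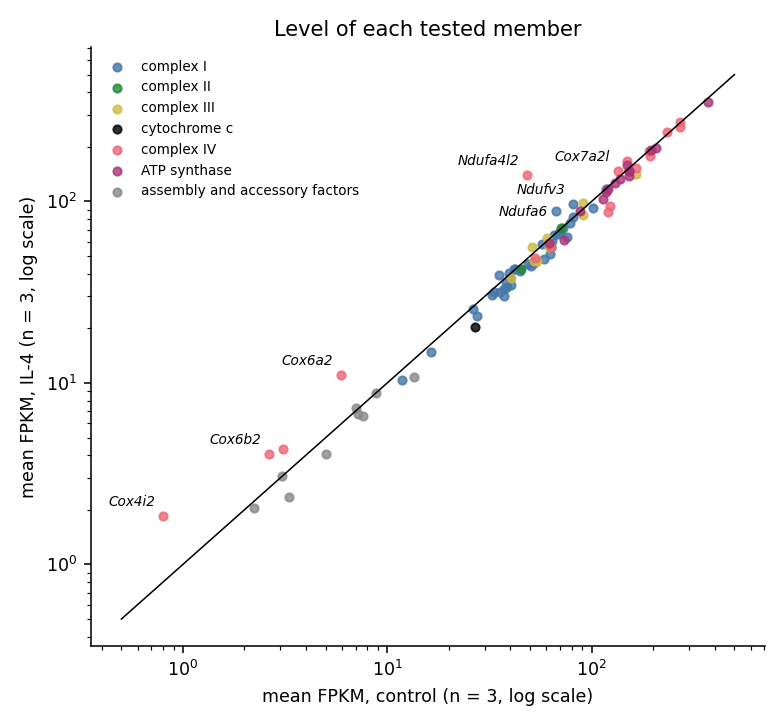
Mean FPKM of each of the 91 tested members in the 3 control libraries (horizontal axis) and the 3 IL-4 libraries (vertical axis), both on log scales, with equal levels along the line; the 7 called members are named. Most points lie along the line over more than 2 orders of magnitude, and Ndufa4l2, Cox6a2, Cox6b2 and Cox4i2 lie above it.

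Levels also varied within complexes. Complex I ranged in control APs from 11.8 FPKM for Ndufa11 to 118 for Ndufa3, both supernumerary subunits. Among its nuclear-encoded core subunits, which carry the redox centers and their binding sites, Ndufs1 was lowest with 27.4. Complex III ran from 40.3 for the Rieske protein gene Uqcrfs1 to 165 for Uqcrb, and the ATP synthase from 61.8 for Atp5k to 370 for Atp5b. Among widely expressed complex IV subunits, Cox7b was lowest with 52.6 FPKM and Cox8a was level with Cox6a1 at the top, with 272 each.

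IL-4 replicate 6 stood apart in these genes. It was the highest of the IL-4 libraries for 87 of the 91 tested members, and control replicate 3 was the highest control for 81. Among other genes with transcripts under 1000 nt, replicate 6 was highest of its group for 87.1% and control replicate 3 for 76.5%, against 43.8% and 41.8% over all tested genes. For such short genes that are no members, the median log2 ratio to the mean of the 6 libraries was 0.34 in IL-4 replicate 6 and 0.042 in control replicate 3, and between -0.16 and -0.030 in the other 4 libraries. For transcripts of at least 4000 nt it was -0.21 in IL-4 replicate 6. The members are mostly short, with a median of 746 nt. The summed FPKM of the members was 7003, 6658 and 7747 in controls and 6132, 6308 and 8384 with IL-4. On this scale IL-4 replicates 4 and 5 lay below every control and replicate 6 above. FPKM do not carry the TMM scaling, whose factors were 1.05 to 1.07 in controls and 0.932 to 0.961 with IL-4. After TMM scaling, the median log2 ratio of the members was -0.070, -0.12 and 0.062 in controls. With IL-4 it was -0.092, -0.063 and 0.30, so that replicates 4 and 5 lay among the controls.

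**Figure D2:**
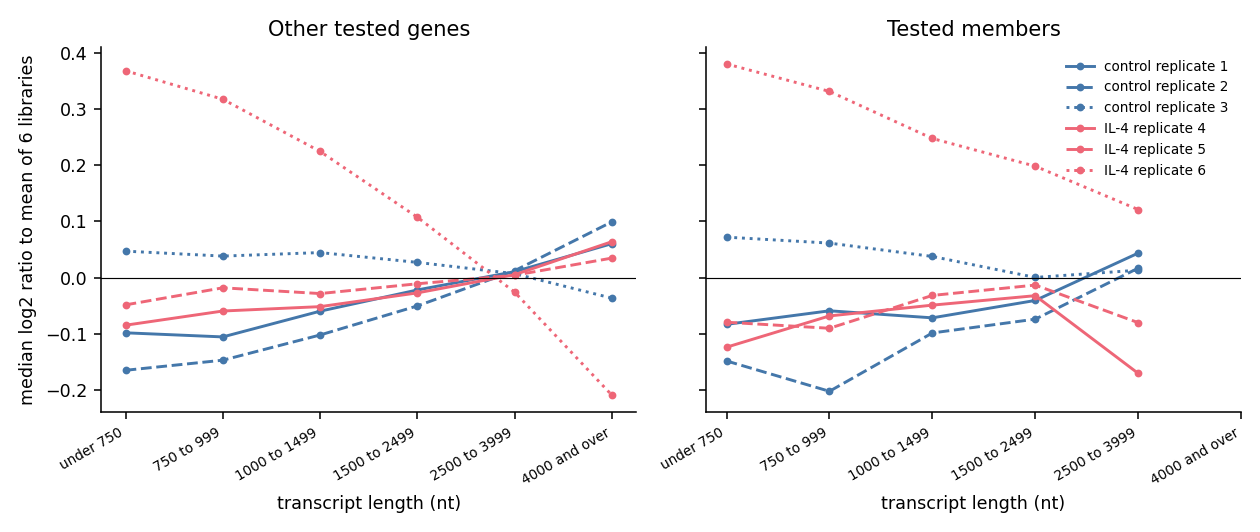
Median log2 ratio of normalized counts to the mean over the 6 libraries, by transcript length, for tested genes that are no members (left) and for tested members (right); each line is a library. In IL-4 replicate 6 the line falls from 0.37 for other genes under 750 nt to -0.21 at 4000 nt and over, where there are no members.

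After 4 days with IL-4, 7 of the 91 tested members had risen and none had fallen (quasi-likelihood test of edgeR, Benjamini-Hochberg adjusted p under 0.05, with 14009 genes in the adjustment). Of all tested genes, 19.0% were higher and 18.4% were lower by that rule. The 7 were Ndufa4l2, Cox4i2, Cox6a2, Cox6b2 and Cox7a2l of complex IV and Ndufa6 and Ndufv3 of complex I. For falls, the same test gave 0 at an unadjusted p under 0.05 as well, and DESeq2 also called 0. With library totals 5 members fell, where 4963 of all 14009 tested genes did. With limma on log2(FPKM + 1) or log2(FPKM + 0.1) 7 fell, where 4916 and 4904 of all genes did. Without IL-4 replicate 6 there were 9 falls, where 3014 of 14140 genes fell. Beyond 2-fold, 3 members rose, Ndufa4l2, Cox4i2 and Cox6a2, and none fell, where 5.77% and 5.26% of all genes did. The median log2 fold change of the tested members was 0.090, beside 0.0026 for all genes. It was -0.080 with library totals in place of TMM, edgeR's trimmed-mean scaling of libraries, a choice that moved the median of all genes to -0.17. Without IL-4 replicate 6 the median of the members was -0.028, beside 0.0024 for all genes. With all 6 libraries and TMM, 70 of the 91 members were above 0 and 21 below. The share of all genes above 0 is not given here. Control and IL-4 libraries did not overlap in 15 members, all higher with IL-4, or 16.5%, against 25.2% of all genes higher and 25.3% lower without overlap.

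**Figure D3:**
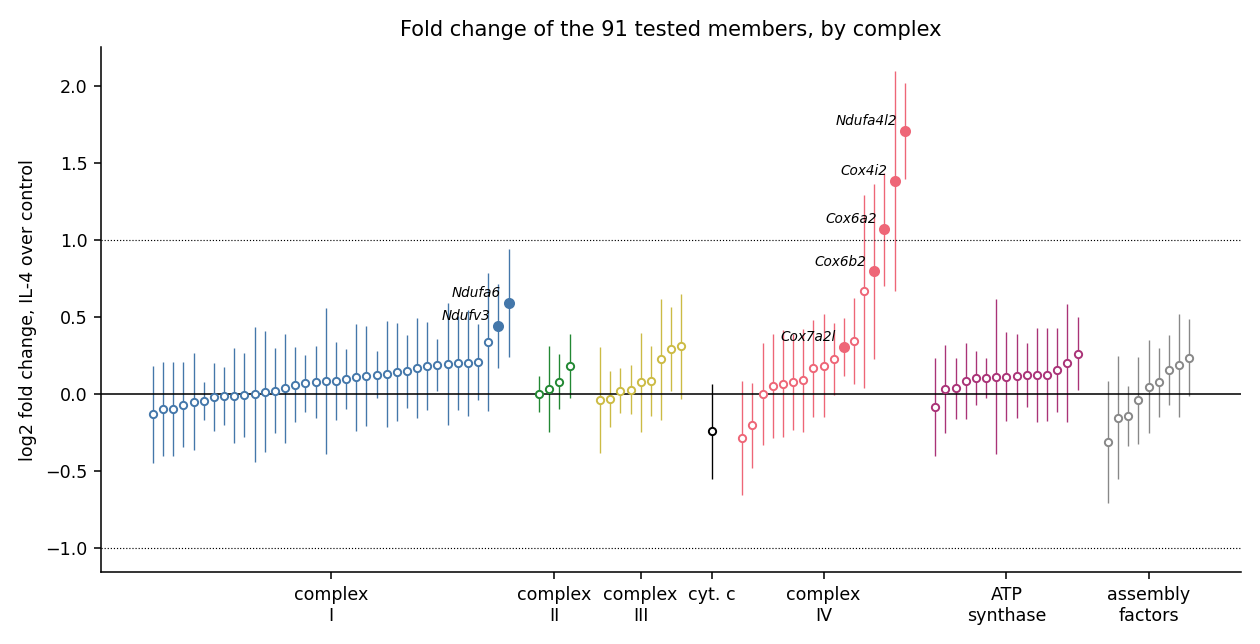
Log2 fold change (IL-4 over control, edgeR, n = 3 libraries each) of the 91 tested members, ordered by size within each complex, with 95% confidence intervals; filled circles are the 7 members called and dotted lines mark 2-fold. Complex IV holds 5 of the 7, 4 of them alternative paralogs, and no member lies below the lower dotted line.

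With all 6 libraries after TMM scaling, the 95% confidence interval of the fold change lay within 2-fold either way for 86 of 91 members. For 75 it lay within 1.5-fold. Some members within 2-fold, such as Ndufa4, were called under alternatives given below. The 5 whose interval reached beyond 2-fold were Cox4i2, Cox6a2, Cox6b2, Cox7a1 and Ndufa4l2. All 36 complex I, 4 complex II, 9 complex III and 15 ATP synthase members were bounded within 2-fold. The narrowest interval was that of Sdha, the flavoprotein subunit of succinate dehydrogenase, with 4808, 4879 and 4737 normalized counts (reads on the mean TMM-scaled library size) in controls and 4790, 4903 and 4765 in IL-4–treated APs. Its groups overlapped, and the log2 fold change was 0.0034 (interval -0.11 to 0.12, adjusted p = 0.966 from edgeR). With library totals Sdha was at -0.17 and called lower (adjusted p = 0.0253 from edgeR), as it was with limma on the FPKM.

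By complex, the 29 supernumerary subunits of complex I had log2 fold changes from -0.097 (Ndufa8) to 0.59 (Ndufa6), with a median of 0.086 and 2 called. The 7 core subunits ran from -0.13 (Ndufs8) to 0.20 (Ndufs7), with none called. Complex III ran from -0.037 (Uqcrb) to 0.31 (Uqcrq), and the ATP synthase from -0.082 (Atp5g1) to 0.26 (Atp5d), again with none called. Assembly and accessory factors had the lowest value of all members, -0.31 for Ndufaf6 (adjusted p = 0.201 from edgeR), and the highest of these 9 was Ndufaf3 with 0.23. The 12 widely expressed complex IV subunits had a median of 0.084, against 1.07 for the 5 tested alternative paralogs, of which 4 were called.

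Ndufa4l2 (Entrez gene 407790, chromosome 10 from 127509274 to 127517154), a paralog of Ndufa4 that is known as a target of the hypoxia-inducible factor HIF-1, showed the largest rise of the members. It was read at 47.3, 41.9 and 56.0 FPKM in controls and 119, 137 and 165 FPKM with IL-4, so that the lowest IL-4 library held over 2 times the highest control. Its log2 fold change was 1.71 ± 0.13 (SE, n = 3 each, adjusted p = 3.4e-05 from edgeR). Its locus overlaps Shmt2, whose log2 fold change was 0.36. Ndufa4 (chromosome 6 from 11900372 to 11907450), which was first assigned to complex I and is now placed in complex IV, was read at 112, 117 and 134 FPKM in controls and 74.5, 74.7 and 114 with IL-4. IL-4 replicates 4 and 5 lay below all controls and replicate 6 lay among them. Its log2 fold change of -0.28 ± 0.16 (SE, n = 3 each) missed the threshold (adjusted p = 0.205 from edgeR).

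Ndufa4l2 thus lay below Ndufa4 in each control library and above it in each IL-4 library. It made up 29.7%, 26.4% and 29.5% of the FPKM of the pair in controls and 61.4%, 64.7% and 59.1% with IL-4. This share compares genes within a library, so library scaling does not enter it. A library's trend with transcript length still can, as Ndufa4 has 492 nt and Ndufa4l2 986 nt. The difference between 28.5% ± 1.89 and 61.7% ± 2.81 (SD, n = 3 each) gave p = 0.1 in a two-sided exact permutation test, the smallest that 3 against 3 allows. The p adjusted over the 5 pairs tested was 0.1, and by construction no pair could pass. The sum of both genes was 159 to 190 FPKM in controls and 193 to 279 with IL-4.

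Cox4i2 (chromosome 2 from 152753916 to 152765039), the alternative form of Cox4i1 known from lung and from the response to low oxygen, was rare. It had 15, 11 and 19 reads in controls and 28, 29 and 49 with IL-4, and the groups did not overlap. The log2 fold change was 1.38 ± 0.31 (SE, n = 3 each, adjusted p = 0.00896 from edgeR). Cox4i1 was read at 220 to 249 FPKM in controls and 218 to 286 with IL-4. By normalized counts its groups did not overlap, and its log2 fold change of 0.23 was not called (adjusted p = 0.118 from edgeR). Without control replicate 3 and IL-4 replicate 6 it was called higher (0.15, adjusted p = 0.0093 from edgeR). With the length offsets described below it was not (0.085, adjusted p = 0.0502 from edgeR). Cox4i2 made up only 0.339% ± 0.0685 (SD, n = 3) of the pair in controls and 0.745% ± 0.121 (SD, n = 3) with IL-4. The Cox4i2 locus overlaps Bcl2l1, whose log2 fold change was -0.64.

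Cox6a2 (chromosome 7 from 128205435 to 128206366), the heart and skeletal muscle form of subunit 6A, had 104, 96.9 and 93.8 normalized counts in controls and 170, 196 and 251 with IL-4. Controls were close together and all IL-4 libraries lay above them, with a log2 fold change of 1.07 ± 0.16 (SE, n = 3 each, adjusted p = 0.0011 from edgeR). Its share of the pair with Cox6a1 went from 2.16% ± 0.267 to 4.14% ± 0.244 (SD, n = 3 each). The Cox6a2 locus overlaps Itgad, which was not tested. Cox6a1 itself was at 272 ± 31.1 FPKM in controls and 256 ± 57.9 with IL-4 (SD, n = 3 each).

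Cox6b2 (chromosome 7 from 4751792 to 4753094), known as the testis form of subunit 6B, had 43, 22 and 40 reads in controls and 49, 60 and 55 in IL-4–treated APs. The log2 fold change of 0.80 ± 0.25 (SE, n = 3 each) had an adjusted p of 0.0353 from edgeR, and the interval ran from 0.23 to 1.36. Cox7a1, the muscle form of subunit 7A, was at 26, 22 and 38 reads in controls and 34, 35 and 54 with IL-4. On the normalized scale the lowest IL-4 library, with 36.4, was just above the highest control, with 35.6. The log2 fold change of 0.67 ± 0.27 (SE, n = 3 each) was not called (adjusted p = 0.0902 from edgeR). Cox8b, a heart, muscle and brown fat form, had 1 read in 1 control library and none elsewhere and could not be tested. In all 5 pairs compared, the share of the alternative form was higher in each IL-4 library than in any control. Each gave p = 0.1, the smallest that the exact permutation test allows. Among single genes, by normalized counts, 25.2% of all tested were higher with IL-4 without overlap.

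**Figure D4:**
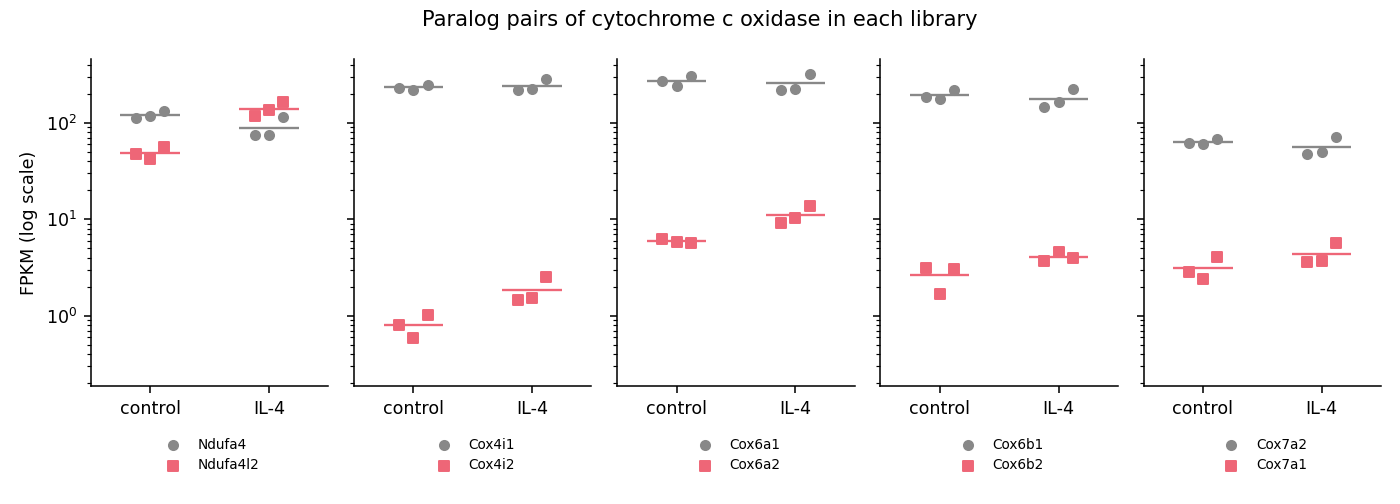
FPKM (log scale) of 5 complex IV paralog pairs in each of the 3 control and 3 IL-4 libraries, with the widely expressed form as grey circles, the alternative form as red squares and group means as lines. Ndufa4l2 crosses Ndufa4 between the groups, while Cox4i2, Cox6a2, Cox6b2 and Cox7a1 remain far below their partners.

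A further 3 members, Ndufa6, Ndufv3 and Cox7a2l, rose by less than 2-fold, and the call of each was lost without control replicate 1 and without control replicate 2. Ndufa6, a supernumerary complex I subunit, had 844, 818 and 1003 normalized counts in controls and 1159, 1185 and 1675 with IL-4. It rose by 0.59 ± 0.15 on the log2 scale (SE, n = 3 each, adjusted p = 0.0167 from edgeR), with no overlap. Ndufv3, another supernumerary subunit of complex I, had 1316, 1301 and 1521 normalized counts in controls and 1672, 1740 and 2206 with IL-4, a log2 fold change of 0.44 ± 0.12 (SE, n = 3 each, adjusted p = 0.0189 from edgeR). Cox7a2l, a widely expressed complex IV subunit, had 3714, 3594 and 3960 normalized counts in controls and 4321, 4420 and 5182 with IL-4. All IL-4 libraries lay above all controls, and its log2 fold change was 0.31 ± 0.082 (SE, n = 3 each, adjusted p = 0.0207 from edgeR).

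Of the 3 genes for the c subunit of the ATP synthase, which yield the same mature protein, Atp5g2 made up the largest part. Its share of their summed FPKM was 46.5% ± 1.11 in controls and 49.2% ± 0.101 with IL-4 (SD, n = 3 each). Atp5g3 made up 36.2% ± 1.26 and 35.3% ± 0.411, and Atp5g1 17.3% ± 0.192 and 15.5% ± 0.512 (SD, n = 3 each). None of the 3 was called, with log2 fold changes of 0.15 for Atp5g2, 0.033 for Atp5g3 and -0.082 for Atp5g1. In this comparison no other ATP synthase gene was called. In the comparisons without control replicate 3 and IL-4 replicate 6, and with all 6 leveled for transcript length, both described below, Atp5a1 and Atp5d were higher and Atp5g1 lower, and Atp5g3 was lower in the leveled one (-0.11).

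Cycs, which encodes the mobile carrier cytochrome c, had 2190, 2024 and 2364 normalized counts in controls and 1580, 1719 and 2272 with IL-4. IL-4 replicates 4 and 5 lay below all controls and replicate 6 did not, and the log2 fold change was -0.24 ± 0.13 (SE, n = 3 each, adjusted p = 0.201 from edgeR). Part of its reads was divided between genes by the authors' counting, as for 8 other members. Cyc1, the cytochrome c1 subunit of complex III, had a log2 fold change of -0.032 (interval -0.21 to 0.15). The other 3 subunits of complex II lay at 0.033 for Sdhb, 0.18 for Sdhc and 0.080 for Sdhd.

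Because IL-4 replicate 6 and control replicate 3 held more reads of short transcripts, the members were also compared without these 2 libraries and with offsets that level each library's trend with transcript length, alternatives chosen after the data had been seen. Without control replicate 3 and IL-4 replicate 6, 16 members were higher and 10 lower, where 25.5% and 25.1% of all genes were. With the length offsets, 10 were higher and 18 lower, where 25.7% and 25.4% of all genes were. The median standard error of the members fell from 0.13 to 0.058 without the 2 libraries and to 0.050 with the offsets. Their median log2 fold change was 0.0024 and -0.027. The share of all genes called in both comparisons is not given here. Both comparisons called 8 members lower: Atp5g1, Cox5a, Cox7a2, Ndufa4, Ndufa8, Ndufaf2, Ndufb7 and Ndufs8. Both called 10 higher: Cox4i2, Cox6a2, Cox7a2l, Ndufa4l2, Ndufa6 and Ndufv3, called in the whole set as well, and Atp5a1, Atp5d, Cox6c and Uqcrq, which were not. Ndufa4 was at -0.43 without the 2 libraries (adjusted p = 8.67e-06 from edgeR) and -0.47 with the offsets (adjusted p = 5.25e-05). Cox5a, a widely expressed complex IV subunit on the matrix side, was at -0.29 and -0.35 (adjusted p = 0.000152 and 2.44e-05 from edgeR). Of these comparisons, Cycs was lower only without the 2 libraries, at -0.35, and had an adjusted p of 0.15 with the offsets. The part of transcript length in the calls of single members was not tested.

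Of the 7 members called in the whole set, 7 were called without the 2 libraries and 6 with the offsets, where Cox6b2 was not (adjusted p = 0.0582 from edgeR). Ndufa4l2, Cox4i2 and Cox6a2 were called under all 14 alternatives, with log2 fold changes of 1.51 to 1.82, 0.65 to 1.57 and 0.78 to 1.198. Cox6b2 was called under 7 of the 14, Cox7a2l under 8, and Ndufa6 and Ndufv3 under 9 each, and all 7 stayed above 0 throughout. The call of Cox6b2 ended without control replicate 2, control replicate 3, IL-4 replicate 4 or IL-4 replicate 5.

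Genes that control or serve the respiratory chain were also read, beside 19.0% of all tested genes called higher and 18.4% called lower. Among 16 tested regulators of respiratory gene transcription, the coactivators Ppargc1a and Ppargc1b rose, and Peo1, the mitochondrial DNA helicase, fell. Ppargc1a went from 5.41 ± 4.00 to 46.3 ± 14.03 normalized counts and Ppargc1b from 35.5 ± 5.84 to 75.1 ± 9.32 (SD, n = 3 each). Log2 fold changes were 3.07 for Ppargc1a, 1.08 for Ppargc1b and -0.21 for Peo1. Nrf1 was at 0.17 (adjusted p = 0.0921 from edgeR), Gabpa at 0.019, Esrra at 0.053, Yy1 at 0.045 and Tfam, the mitochondrial transcription factor, at 0.015, none of them called. Among the 38 tested assembly factors outside the symbol rule, Cox14 rose (0.42) and Tmem70, which helps to assemble the ATP synthase, fell (-0.33).

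Coenzyme Q synthesis had 3 of 13 genes higher and 2 lower, where 19.0% and 18.4% of all tested genes were. The largest rise was that of Adck3, a kinase-like protein of that pathway, at 1.05, with Coq9 at 0.43 and Coq10a at 0.39. Coq10b (-0.33) and Adck4 (-0.23) fell. In the tricarboxylic acid cycle and pyruvate dehydrogenase, 2 of 17 rose, Dlat (0.64) and Suclg2 (0.24), and 1 fell, Idh3a (-0.34). Of 8 tested carriers and uncoupling proteins only Ucp2 was called, and fell (-0.37), and Ucp1, which makes heat from the proton gradient in brown and beige adipocytes, had no more than 3 reads in any library. Of 77 mitochondrial ribosome genes 1 was higher and 1 lower, with a median of 0.028. With the length offsets 3 were higher and 18 lower (median -0.075), where 25.7% and 25.4% of all genes were. Without the 2 libraries 5 were higher and 13 lower (median -0.041), where 25.5% and 25.1% of all genes were. Of 85 tested cytosolic ribosome genes, whose transcripts are also short with a median of 730 nt, 8 were higher and 0 lower, with a median of 0.23. The cytosolic ribosome gave 30 higher and 2 lower with the length offsets, and 51 and 1 without the 2 libraries.

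**Figure D5:**
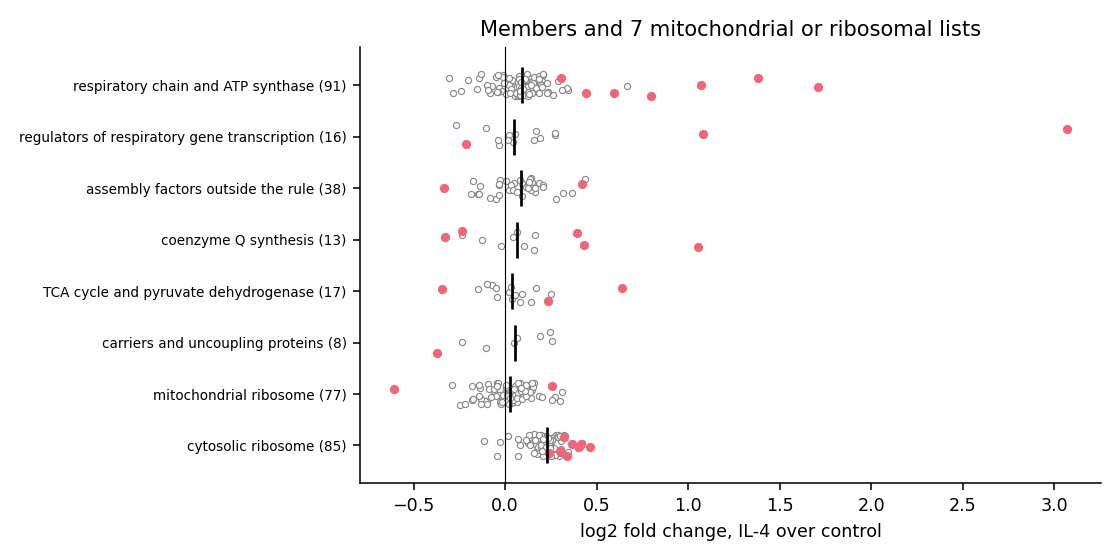
Log2 fold change (IL-4 over control) of each tested gene of the respiratory chain and ATP synthase and of 7 related lists, with the number tested in parentheses; filled red points are called (adjusted p under 0.05 from edgeR), and black bars are list medians. All medians lie between 0.028 and 0.23, and Ppargc1a lies farthest right at 3.07.

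Ndufa4l2 and Cox4i2 are also known as genes of pericytes, and Ndufa4l2 as a gene of the response to low oxygen, so genes of both kinds, picked after the values were seen and therefore not tested as lists, are given beside them. The pericyte genes Rgs5, Abcc9, Kcnj8, Cspg4, Notch3 and Mcam had log2 fold changes from -1.76 to -0.65, and all 6 were called lower. The summed level of 7 such genes was 23.8 to 26.2 FPKM in controls and 7.35 to 8.87 with IL-4. Higd1b, another pericyte gene, was close to 0 in both groups, with 0.625 and 1.77 normalized counts on average. Of the 10 genes of the response to low oxygen, 7 were called higher and 1 lower, where 19.0% and 18.4% of all tested genes were. These 10 had a median log2 fold change of 0.49 and ran from -0.33 for Ndrg1 to 1.79 for Ankrd37. Egln3 was at 1.57, Vegfa at 0.61, Bnip3 at 0.57 and Car9 at -0.063. Their part in the rise of Ndufa4l2 and Cox4i2 was not tested.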

How the data were processed

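For mRNA-seq, reads were filtered by the authors with SOAPnuke, and gene levels were computed with Bowtie2 and RSEM; the submitters' processing notes also name HISAT, StringTie and mm10. The deposited expected counts are not normalized, and the deposited FPKM were scaled by the authors to transcript length and library size. Genes not listed in a library were taken as 0, and 1 row per library without a gene number (at most 0.000225% of counts) was left out. Whether counting used strand is not given in the sources used here.

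Expected counts were rounded, filtered (filterByExpr, minimum count 10, minimum total 15), scaled with TMM and compared with the quasi-likelihood test of edgeR 4.0.16 (R 4.3.3), with Benjamini-Hochberg adjustment over all genes. Normalized counts are counts on the mean TMM-scaled library size. The biological coefficient of variation was 0.0939. Intervals are 95% and cover these libraries only. Depth was alike in all libraries, as given with the samples, so counting error is large only for members with few reads. Paralog shares were compared with two-sided exact permutation tests (scipy 1.17.1).

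Alternatives were DESeq2 1.42.0, upper-quartile scaling, library totals, no filter, limma 3.58.1 on FPKM after adding 1 or 0.1 and taking log2, and each library left out in turn. Leaving out 2 libraries together and length offsets (lowess, span 0.5) were chosen once the data had been seen. The tests were tried on simulated counts that had the same dispersion for every gene and no trend with transcript length. That trial therefore cannot show how the tests behave under such a trend. Members and lists were chosen with earlier results of these data known. Named were paralog sets, complex II, the cytochromes, members beyond 2-fold, the 8 largest called changes each way whose groups did not overlap and whose mean reached 100 normalized counts, the highest and lowest member per complex, and regulators. Members called under added alternatives, promoter motifs, pericyte and low-oxygen genes were chosen after their values were seen. Cox7b2 and Cox8c, and the 4 small RNA libraries, were not analysed here. Coordinates and promoters are from RefSeq on GRCm38.p6, the assembly of mm10.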

Additional observations from a re-analysis of the deposited data

How the results depend on the processing

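DESeq2, upper-quartile scaling and no filter kept the numbers of members called, and those beyond 2-fold, within 1.5 times those reported. With library totals, 3 members were higher and 5 lower, where 1704 and 4963 of all 14009 tested genes were. The median log2 fold change of the members was then -0.080. With limma, log2(FPKM + 1) gave 4 higher, 7 lower, 1 beyond 2-fold and a median of -0.090. On log2(FPKM + 0.1) it gave 3 higher, 7 lower and a median of -0.097. Of all 14009 genes, limma called 1697 higher and 4916 lower with the first, and 1694 and 4904 with the second. These 3 settings do not use TMM, and they moved the median of all genes to -0.17, -0.13 and -0.17. Leaving out 1 library gave 3 to 8 members higher and 0 to 9 lower. Beyond 2-fold, 2 to 3 were higher and 0 lower, and medians ran from -0.028 to 0.17. The 9 lower were found without IL-4 replicate 6, where 3014 of 14140 genes were lower. The 3 higher were found without control replicate 2, where 2033 of 14167 genes were higher. Without control replicate 3 and IL-4 replicate 6 together, 16 were higher and 10 lower, where 25.5% and 25.1% of all genes were. With length offsets 18 were lower, where 25.4% of all genes were. In both, Cox6a2 was under 2-fold (0.87 and 0.91). Sdha turned to -0.17 when called with library totals and with limma at either pseudocount (-0.17 for both). Cox7a2 ran from -0.19 (without IL-4 replicate 6) to 0.12 when 1 library was left out, and turned to -0.16 without both libraries and to -0.15 with length offsets, where Atp5g3 (-0.11) and Cox6b1 (-0.12) turned as well. Beyond the scaling and the libraries left out, the cause was not tested.

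With 3 libraries a group, no single paralog share can pass an exact test, and Cox4i2, Cox6b2, Cox7a1 and Cox8b rest on fewer than 70 reads per library. No paired analysis was possible because the control and IL-4 mRNA-seq libraries share no replicate number.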
